A study of Mus musculus with 15 samples.

Results

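The islets of 10-week-old NOD mice were compared with those of 6-week-old NOD mice, across the interval in which leukocyte transcripts rose in this series. The comparison rests on 6 of the 15 samples of the series, 3 mice at 10 weeks and 3 at 6 weeks, taken by the age in the sample labels. Mice of 8 weeks were left out of the contrast because they varied widely among themselves, and mice of 4, 8 and 12 weeks entered the filter that set which genes were tested, the scaling, the shared estimate of spread and the values by age. All mice were untreated NOD/ShiLtJ females, a strain that develops autoimmune diabetes spontaneously, and the labels separate the 2 groups by age alone. Each sample was RNA from islets picked by hand after collagenase digestion of the pancreas, so each holds endocrine cells and any cell that stayed on the islet. All levels are relative to the RNA of the whole sample. In bulk RNA of this kind, fewer cells of a type, less RNA per cell and a larger share of RNA from other cells cannot be told apart.

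In NOD mice T cells, B cells, macrophages and dendritic cells gather around and then inside the islets, a process called insulitis, and cytotoxic T cells destroy the insulin-producing beta cells. Interferon gamma from T and NK cells turns on MHC class I and class II genes, guanylate-binding proteins and the chemokines that bring in more T cells. With time the infiltrate can take on the layout of a lymph node, with a B cell area held by CXCL13 and vessels that let lymphocytes in.

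Depth was similar across the series, from 25407492 to 41616275 counts per sample, with 27053185 to 41616275 at 6 weeks and 25407492 to 37075834 at 10 weeks. Levels are given as CPM, that is, counts relative to library size after TMM correction, and 3 counts, the floor used here, were worth 0.105 CPM on average at 6 weeks. The labels name separate samples of each age, and p-values measure the spread between these samples. At 6 weeks mouse 3 stood apart in clock genes, which were chosen after their values were seen. Its Dbp level was 101 CPM against 9.12 to 31.4 CPM in the other 14 mice, and its Arntl level was 6.5 CPM against 19.1 to 32.4 CPM. The same mouse had the most leukocyte RNA of the 3 at 6 weeks. At 6 weeks mouse 2 carried intestinal transcripts, with Sis at 7.10 CPM, as did 1 mouse at 12 weeks, while the other 13 mice had 0 CPM. The part of these features in the results was not tested, and larger moves of a count with 1 mouse left out are given beside it.

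Between 6 and 10 weeks 7531 of 16554 genes passed an adjusted p of 0.05 (45.5%), with 3911 higher at 10 weeks (23.6%) and 3620 lower (21.9%). The increases were much larger than the decreases. At least 4-fold differences were found for 1388 of the genes that rose and for 4 of those that fell, and at least 2-fold differences for 2296 and 196. At the threshold of the study, a fold change of at least 1.5 and an unadjusted p under 0.05, 4339 genes were DEGs (26.2%), of which 3072 were higher (18.6%) and 1267 lower (7.65%). For 8816 genes (53.3%) all 3 mice of 1 age lay above all 3 of the other in CPM, 4325 with 10 weeks above (26.1%) and 4491 with 10 weeks below (27.1%). Leaving out 1 mouse at a time gave between 5057 and 8632 calls. The number of lower calls was 2123 without 10-week mouse 1. The median log2 fold change over all genes tested was -0.045, so the medians of the gene lists below can be read against a value close to 0. Their counts of calls can be read against the 23.6% of all genes called higher and the 21.9% called lower.

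All 10 pan-leukocyte genes, which are expressed by most white blood cells, rose (median log2 fold change 3.94). Ptprc encodes CD45, the surface phosphatase that marks leukocytes, and lies at chr1:138062861-138175708 on GRCm38. Its levels were 5.86, 14.9 and 39.7 CPM at 6 weeks and 444, 319 and 178 CPM at 10 weeks. Every mouse at 10 weeks was far above every mouse at 6 weeks, and the log2 fold change was 3.97 ± 0.9 (SE), adjusted p = 0.00467. The mice of each age were far from alike. Averaged over the 10 genes, log2 CPM was 1.93, 2.78 and 4.2 in 6-week mice 1, 2 and 3 and 7.54, 7.22 and 6.32 in 10-week mice 1, 2 and 3. All 10 calls held with any 1 of the 6 mice left out.

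**Figure D1:**
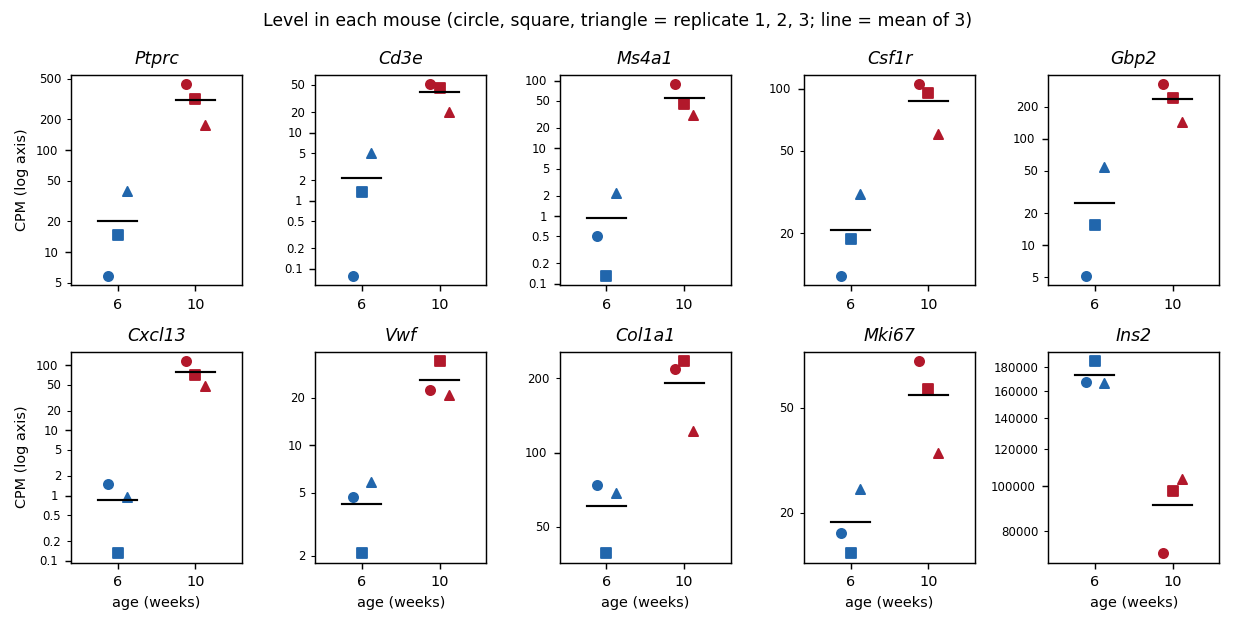
Levels of single genes in CPM, on a log10 axis, with 1 point per mouse (blue at 6 weeks, red at 10 weeks, the shape giving the replicate) and a line at the mean of 3. The ages do not overlap in any of the 10 genes drawn, Ins2 is the one that is lower at 10 weeks, and for Ptprc, Cd3e and Ms4a1 the 6-week mice spread more widely than the 10-week mice.

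Genes of T cells rose as a block. All 24 were called higher (median log2 fold change 4.58), and the ages did not overlap for any of them. Cd3e, a chain of the T cell receptor complex, was at 0.0792, 1.34 and 5.01 CPM at 6 weeks and 51.4, 44.8 and 19.97 CPM at 10 weeks. Cd4, the coreceptor of helper T cells, was at 0.396, 2.89 and 9.07 CPM at 6 weeks and 92.5, 76.9 and 42.3 CPM at 10 weeks. Cd8a, the coreceptor of cytotoxic T cells, was at 0.0396, 1.03 and 4.06 CPM at 6 weeks and 69.2, 54.03 and 24.8 CPM at 10 weeks. In each of these genes 6-week mouse 1 was lowest and 6-week mouse 3 highest, and 10-week mouse 3 lay below the other two. The log2 fold changes were 4.2 ± 1.19 (SE) for Cd3e, 4.11 ± 1.09 for Cd4 and 4.88 ± 1.2 for Cd8a. Tcf7, a transcription factor of naive and stem-like T cells, rose by 5.12 on the log2 scale (adjusted p = 0.0026). Trac, the constant part of the T cell receptor alpha chain, rose by 4.58. The Cd3e call was lost without 6-week mouse 2 (adjusted p = 0.056), and the other 23 calls held with any 1 mouse left out.

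B cell genes showed a larger median than those of T cells. All 16 rose (median log2 fold change 5.76), and all 16 held with any 1 mouse left out. Ms4a1, which encodes CD20 and lies at chr19:11249675-11266241, was at 0.515, 0.132 and 2.17 CPM at 6 weeks and 88.7, 44.4 and 30.5 CPM at 10 weeks. Every mouse at 10 weeks was far above every mouse at 6 weeks, and the log2 fold change was 5.96 ± 0.75 (SE), adjusted p = 0.00145. Ighd, the constant region of IgD that mature naive B cells carry, rose by 6.24 (adjusted p = 0.00145). Cd79a, a signalling chain of the B cell receptor, was already present at 6 weeks. Its levels were 4.83, 11.05 and 12.3 CPM at 6 weeks and 98.1, 64.2 and 45.03 CPM at 10 weeks, and the log2 fold change of 2.88 was smaller than that of Ms4a1. Ebf1, a B lineage transcription factor that stromal cells also express, rose least in the list, by 1.56.

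Constant regions of antibodies rose with the B cell genes. Of the 17 genes of plasma cells and immunoglobulin constant regions, 15 passed the filter on low counts and 12 were called higher (median log2 fold change 4.4). Ighm, the IgM heavy chain, was at 19.5, 6.79 and 63.1 CPM at 6 weeks and 1296, 999.6 and 406 CPM at 10 weeks. Ighg2b, a class-switched IgG heavy chain, was at 0.555, 3.16 and 8.79 CPM at 6 weeks and 628, 175 and 37.6 CPM at 10 weeks. The 10-week mice differed widely in Ighg2b, which was highest in mouse 1, and the log2 fold change was 6.08 ± 1.46 (SE), adjusted p = 0.00588. Ighg3 had no count in any mouse at 6 weeks and reached 77.3, 18.6 and 10.7 CPM at 10 weeks, at least 338-fold higher than 3 counts per library (adjusted p = 0.0115). Jchain, which joins IgM and IgA into polymers, rose by 4.4. Igha and Iglc1 were not called (adjusted p = 0.07 and 0.132), and neither was Xbp1, a plasma cell factor that beta cells also express (log2 fold change -0.15). Between 9 and 14 of the genes were called with 1 mouse left out, and the 9 came without 6-week mouse 2 or 10-week mouse 1. Igha and Iglc1 passed without 6-week mouse 3 (adjusted p = 0.0129 and 0.00506), and Igha also without 10-week mouse 3 (adjusted p = 0.0489).

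The variable (V) segments of the antibody genes, of which each B cell clone uses a few, took more counts at 10 weeks. The table holds 348 V segments of the heavy, kappa and lambda loci. They took 431, 263 and 1824 counts in 6-week mice 1, 2 and 3 and 34563, 32025 and 8928 counts in 10-week mice 1, 2 and 3. The number of segments with any count was 28, 40 and 107 at 6 weeks and 190, 184 and 169 at 10 weeks, but such a number depends on how many V counts there are and was not compared at equal depth. The ages did not overlap in V counts. The leading segment differed among the mice at both ages. At 6 weeks it was Igkv14-126, with 45.7% of the V counts of mouse 1, Ighv1-26, with 11.8% in mouse 2, and Iglv1, with 11.3% in mouse 3. At 10 weeks Ighv2-2 took 12.7% in mouse 1, Ighv4-1 took 9.95% in mouse 2 and Igkv1-110 took 10.1% in mouse 3. Of the 20 highest segments at 10 weeks, 4 were shared by all 3 mice, and pairs of mice shared 7, 9 and 7. Reads of near-identical V segments can be assigned to the wrong copy, so the values of single segments are uncertain.

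Segments of this kind also made up most of the largest increases by log2 fold change, a ranking that rests mainly on genes with no count at 6 weeks. Of the 15 genes with the largest log2 fold change, among called genes of at least 1 CPM at one of the ages whose ages did not overlap, 13 were V segments, and the others were Ighg3 and A530032D15Rik. Of the 15, 13 had no count in any mouse at 6 weeks, and the other two, Ighv4-1 and Igkv1-135, had at most 0.079 CPM. A log2 fold change from no counts has no fixed size, so the ranks of these 13 genes are uncertain. Single mice decided several of the values at 10 weeks. Ighv4-1 was at 0.651, 80.03 and 3.42 CPM in the 10-week mice and Igkv1-135 at 77.3, 4.47 and 3.86 CPM. The lower bounds against 3 counts per library ran from 17.5-fold for Ighv7-1 and Ighv1-54 to 168-fold for Igkv8-16, with Ighg3 above them. The lowest of these bounds were under the median of the B cell list, 54.2-fold. The Ighv1-54 call was lost without 10-week mouse 1 or 6-week mouse 2 (adjusted p of up to 0.0553).

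Macrophage and monocyte genes rose less than those of lymphocytes. Of 22 genes 21 were tested, 16 were called higher and 1 lower (median log2 fold change 2.03). Csf1r, the receptor for the growth factor that keeps macrophages alive, was at 12.5, 18.7 and 31.1 CPM at 6 weeks and 105, 95.6 and 60.6 CPM at 10 weeks. C1qa, a complement gene of tissue macrophages, was at 38.99, 58.1 and 72.6 CPM at 6 weeks and 232, 204 and 132 CPM at 10 weeks. These genes were well above the floor in every 6-week mouse, and the ages did not overlap. The log2 fold changes were 2.07 ± 0.48 (SE) for Csf1r, 2.00 ± 0.51 for Adgre1, which encodes F4/80, and 1.74 ± 0.36 for C1qa. Lyz2, the lysozyme of myeloid cells, rose by 3.44 and Marco, a scavenger receptor, by 4.39. Cd163 and Lyve1, genes of perivascular and resident macrophages, had log2 fold changes of 0.66 and -0.21 and were not called.

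Of the 15 dendritic cell genes 14 rose (median log2 fold change 2.76). Itgax, which encodes CD11c, rose by 2.76, and Flt3, the growth factor receptor of dendritic cells, by 3.57 (adjusted p = 0.00836 and 0.0128). Xcr1, a chemokine receptor of cross-presenting dendritic cells, rose by 2.96. Ccl17, a chemokine that draws CCR4-bearing T cells, went the other way. Its levels were 1.03, 0.447 and 0.788 CPM at 6 weeks and 0.109, 0.276 and 0.199 CPM at 10 weeks, near the floor at 10 weeks, with a log2 fold change of -1.88 ± 0.46 (SE), adjusted p = 0.00652. It was the only gene of the list below its 6-week level. The number of higher calls was 10 without 6-week mouse 2 and 11 without 6-week mouse 1, and the Xcr1 call was lost in both cases (adjusted p = 0.0668 and 0.0549). The Flt3 call was lost without 6-week mouse 2 (adjusted p = 0.0534).

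Cytotoxic and checkpoint genes rose alongside. Of 21 genes 19 were called higher (median log2 fold change 3.9). Ifng, the gene of interferon gamma, was at 0, 0.0526 and 0.867 CPM at 6 weeks and 6.62, 4.72 and 2.33 CPM at 10 weeks. All 3 mice at 10 weeks were above the highest at 6 weeks, and the log2 fold change was 3.96 ± 1.24 (SE), adjusted p = 0.0204. Prf1, the pore-forming protein of killer cells, rose by 4.01 and Eomes, a transcription factor of NK and CD8 T cells, by 5.66. The inhibitory receptors Pdcd1 (PD-1) and Lag3 rose by 4.61 and 4.96 (adjusted p = 0.00888 and 0.00351). Cd274, which encodes the PD-1 ligand PD-L1, was at 13.4, 20.9 and 37.4 CPM at 6 weeks and 159.6, 124 and 91.2 CPM at 10 weeks. Klrb1c, a receptor gene of NK cells, was not called (adjusted p = 0.0529), and neither was Gzma, a granule protease (adjusted p = 0.182). With 1 mouse left out, between 12 and 20 genes were called higher, with 12 without 6-week mouse 2 and 14 without either 6-week mouse 1 or 10-week mouse 1. Klrb1c passed without 10-week mouse 3 or 6-week mouse 3 (adjusted p = 0.0161 and 0.0471). The Ifng call was lost in each of the cases with 12 or 14 calls (adjusted p = 0.0772, 0.0607 and 0.0598).

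Genes of regulatory and helper T cells followed, with 11 of 12 tested genes higher and a median log2 fold change of 3.63. Il21, a helper T cell cytokine that acts on B cells, rose by 6.35 (adjusted p = 0.00227), and Il10, an anti-inflammatory cytokine, by 4.07 (adjusted p = 0.0175). Foxp3, the transcription factor that defines regulatory T cells, was at 0.0396, 0.184 and 2.52 CPM at 6 weeks and 13.1, 10.9 and 5.88 CPM at 10 weeks. Its log2 fold change was 3.49 ± 1.22 (SE), adjusted p = 0.0344. Il2, Il4 and Il17a had too few counts to be tested. The number of higher calls was 6 without 6-week mouse 2, and 8 without 6-week mouse 1 or 10-week mouse 1. Foxp3 lost its call without 6-week mouse 1 or 2 or 10-week mouse 1 or 2, with an adjusted p of up to 0.113, and Il10 without 6-week mouse 1 or 2 (adjusted p = 0.0561 and 0.0729).

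**Figure D2:**
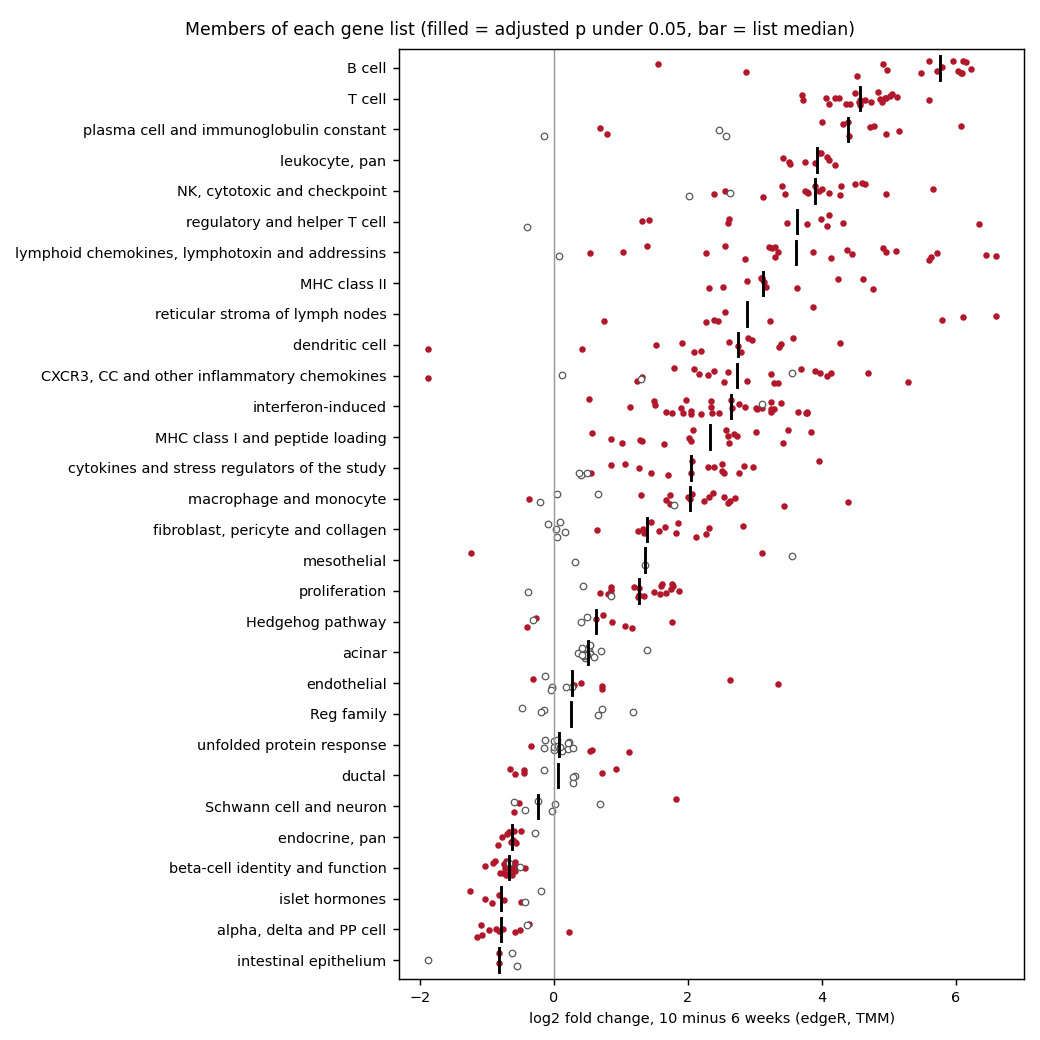
Log2 fold change from 6 to 10 weeks of each tested gene, grouped by list, with filled points for genes that passed an adjusted p of 0.05, open points for the rest and a bar at the list median. Lists with fewer than 5 tested genes and the gene Ighg3 are not drawn. The B cell and T cell medians lie farthest to the right, at 5.76 and 4.58, and the hormone and beta-cell medians lie left of 0, at -0.78 and -0.67.

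Because all 10 pan-leukocyte genes rose, a second fit asked which of them rose more or less than leukocyte RNA in general, by scaling each sample to its mean pan-leukocyte level. On this scale 92.5% of genes were called, 83 of 16554 higher at 10 weeks (0.501%) and 15230 lower (92.0%), so a call in the higher direction sets a gene apart from the rest of the islet. The absence of a lower call says less, because a gene with a wide spread between mice can miss it. Of the 16 B cell genes 9 were called higher and 1, Ebf1, lower, and between 3 and 9 were higher with 1 mouse left out, with 3 without 6-week mouse 2 and 4 without 10-week mouse 1. Ighd had a scaled log2 fold change of 2.67 ± 0.9 (SE), adjusted p = 0.00389, and Fcer2a, the low-affinity IgE receptor CD23 of follicular B cells, had 2.39 ± 0.91 (SE), adjusted p = 0.0109. Both held with any 1 mouse left out. Among T cell genes 1 of 24 was called higher and none lower, with 0 higher without 6-week mouse 1 or 10-week mouse 2 and 5 without 6-week mouse 3. In the full fit the scaled log2 fold changes of Cd3e and Cd8a, neither of which was called, were 0.72 and 1.41.

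Macrophage genes had lower values on this scale than lymphocyte genes. Of 21 genes 13 were called lower and none higher, a smaller share of lower calls than the 92.0% of all genes, with a median of -2.05. C1qa had a scaled log2 fold change of -2.4 ± 0.97 (SE), adjusted p = 0.0157 and Adgre1 had -2.05 ± 0.87 (SE), adjusted p = 0.0214. The lower calls numbered between 7 and 14 with 1 mouse left out, with 7 without 10-week mouse 1, 10-week mouse 2 or 6-week mouse 1. The C1qa call was lost without 10-week mouse 1 or 2 and the Adgre1 call without any of the 10-week mice or 6-week mouse 1, with an adjusted p of up to 0.0689. Dendritic cell genes had 5 of 15 lower, also below the 92.0% of all genes, and none higher, with 3 lower without 10-week mouse 1, 10-week mouse 2 or 6-week mouse 1. In the cytotoxic list 1 gene was higher, Eomes, and 1 of 21 was lower. In the helper list 1 was higher, Il21 (2.77, adjusted p = 0.0152), and 3 of 12 were lower, against 92.0% of all genes. The helper list had 3 lower calls with any 1 mouse left out, and the cytotoxic list 0 or 1. Eomes had 2.12 and lost its call without 6-week mouse 1 or 2 or 10-week mouse 1 or 2 (adjusted p of up to 0.107), and Il21 lost its call without 6-week mouse 2 (adjusted p = 0.0583).

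**Figure D3:**
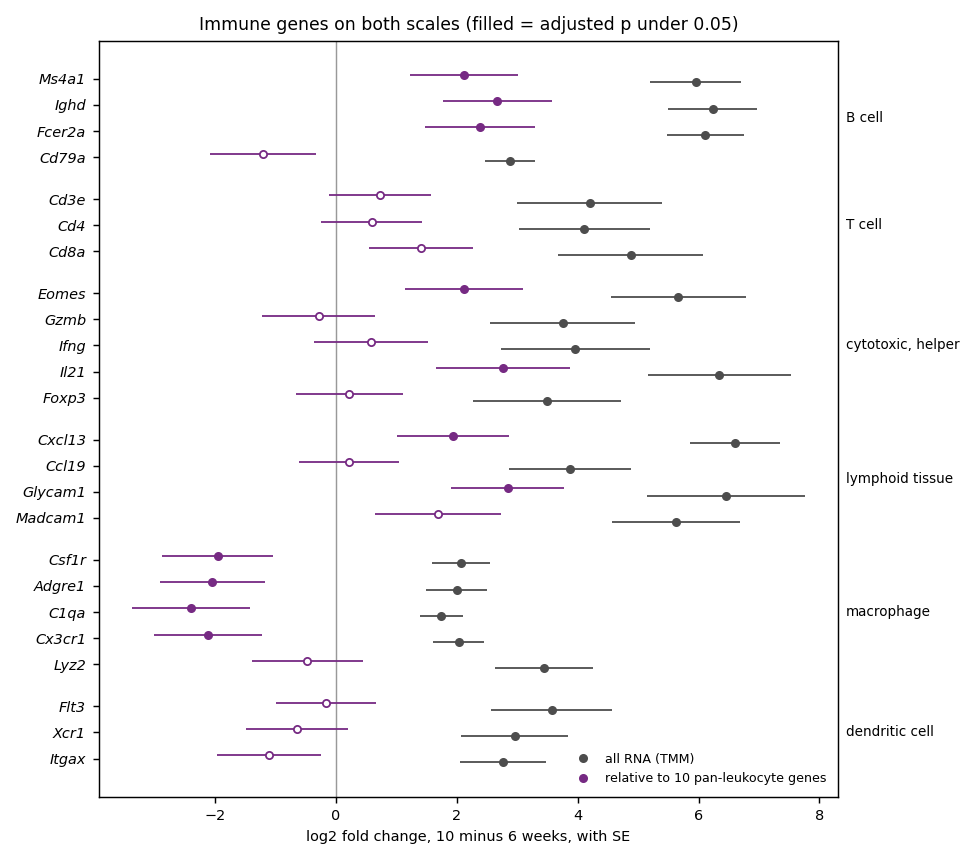
Log2 fold change from 6 to 10 weeks with its SE for single immune genes, on the scale of all RNA (grey) and relative to the 10 pan-leukocyte genes (purple), filled where the adjusted p was under 0.05. On the pan-leukocyte scale Ms4a1, Ighd and Fcer2a stay to the right of 0, the T cell genes drawn have open points and Csf1r, Adgre1, C1qa and Cx3cr1 lie to the left. Cd79a and Lyz2 are drawn as well, and both rose less on the scale of all RNA than the pan-leukocyte median of 3.94.

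Antigen presentation by MHC class I rose throughout. All 18 genes of class I and of the machinery that loads it were higher (median log2 fold change 2.33). B2m, the light chain of every class I molecule, was at 79.7, 156 and 354 CPM at 6 weeks and 2069, 1729 and 980.2 CPM at 10 weeks. Every 10-week mouse was above every 6-week mouse, with a log2 fold change of 3.02 ± 0.87 (SE), adjusted p = 0.0138. H2-K1, a class I heavy chain, rose by 2.74, Tap1, the peptide transporter, by 2.57 and Psmb8, a subunit of the immunoproteasome, by 2.62. Nlrc5, the transactivator of class I genes, rose by 3.42. Erap1, a peptidase that trims class I peptides, rose least, by 0.57. Between 14 and 18 of the calls held with 1 mouse left out. B2m and Nlrc5 lost theirs without 6-week mouse 2 (adjusted p = 0.0544 and 0.0664) or 6-week mouse 1 (adjusted p = 0.0501 and 0.0504). Erap1 lost its call without 10-week mouse 1 or 6-week mouse 1 (adjusted p = 0.055 and 0.0519).

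MHC class II, which professional antigen-presenting cells and B cells carry, rose in all 12 of the genes tested (median log2 fold change 3.13), and all 12 calls held with any 1 mouse left out. Cd74, the invariant chain that escorts class II molecules, was at 113, 217 and 441 CPM at 6 weeks and 2928, 2406 and 1352 CPM at 10 weeks. H2-Aa, a class II alpha chain, rose by 3.14 and Ciita, the transactivator of the class, by 3.64 (adjusted p = 0.0104 and 0.0077). H2-Oa, a class II chaperone that B cells express, had the larger log2 fold change of 4.76. Class II genes made up 0.0376, 0.0721 and 0.156% of all TPM, the authors' length-normalised measure, in the 6-week mice and 1.27, 1.002 and 0.575% in the 10-week mice. On the pan-leukocyte scale none of the 12 was called higher or lower.

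Interferon-induced genes rose almost without exception. Of 33 genes 32 were called higher (median log2 fold change 2.65), and for all 33 the ages did not overlap. Gbp2, a guanylate-binding protein induced by interferon gamma, was at 5.19, 15.7 and 54.5 CPM at 6 weeks and 327, 244 and 144 CPM at 10 weeks. Igtp, an immunity-related GTPase, was at 6.54, 18.2 and 48.1 CPM at 6 weeks and 280.2, 213 and 135 CPM at 10 weeks. In both genes 6-week mouse 3 stood above the other 6-week mice, and 10-week mouse 1 was highest. The log2 fold changes were 3.25 ± 1.08 (SE, adjusted p = 0.0272) for Gbp2 and 3.11 ± 0.94 (adjusted p = 0.017) for Igtp. Isg15, a ubiquitin-like protein that type I interferon also induces, was at 1.78, 1.5 and 2.25 CPM at 6 weeks and 16.4, 12.5 and 6.08 CPM at 10 weeks, a steadier level at 6 weeks than that of the GTPases. Its log2 fold change was 2.66 ± 0.56 (SE), adjusted p = 0.00329. Usp18, which removes ISG15 from proteins, rose by 0.53. Iigp1 was not called (adjusted p = 0.065).

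The interferon calls depended on which 6-week mice were kept. The list had 22 genes called higher without 6-week mouse 1 or 2, 24 without 10-week mouse 1 and 33 without 6-week mouse 3. Gbp2 lost its call without 6-week mouse 1 or 2 or 10-week mouse 1 or 2 (adjusted p of up to 0.0933) and Igtp without 6-week mouse 1 or 2 or 10-week mouse 1 (up to 0.0653), whereas Isg15 held in all 6 cases. Iigp1 passed without 6-week mouse 3 (adjusted p = 0.0242). On the pan-leukocyte scale 14 of the 33 were called lower, against 92.0% of all genes, and none higher. The lower calls were 8 and 7 without 10-week mice 1 and 2 and 6 without 6-week mouse 1, and 15 without 6-week mouse 3.

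Promoters of 4 of these genes are shown because they hold letters of the interferon-stimulated response element, the site to which STAT and IRF factors bind, in a class I gene and in 3 interferon-induced genes of different families. Each is the 250 bases before the gene's start on its own strand, from RefSeq on GRCm38.p6, in lower case, with capitals for matches to a spaced GAAA repeat (GAAA, any 2 bases, GAAA), searched on both strands and so also found as TTTC, any 2 bases, TTTC, and to TTCNNNGAA, the palindrome of STAT dimers. The GAA that ends the palindrome can also begin the repeat, but in the 4 windows shown matches to one did not overlap matches to the other. The windows are chr2:122147437-122147686 (plus strand) for B2m, chr3:142620413-142620662 (plus strand) for Gbp2, chr11:58199306-58199555 (plus strand) for Igtp and chr4:156200819-156201068 (minus strand) for Isg15.
B2m: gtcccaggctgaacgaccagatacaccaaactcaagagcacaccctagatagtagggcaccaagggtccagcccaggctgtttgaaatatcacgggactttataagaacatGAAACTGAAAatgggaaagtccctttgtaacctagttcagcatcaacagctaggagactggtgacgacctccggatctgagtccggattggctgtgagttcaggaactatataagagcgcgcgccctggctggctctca
Gbp2: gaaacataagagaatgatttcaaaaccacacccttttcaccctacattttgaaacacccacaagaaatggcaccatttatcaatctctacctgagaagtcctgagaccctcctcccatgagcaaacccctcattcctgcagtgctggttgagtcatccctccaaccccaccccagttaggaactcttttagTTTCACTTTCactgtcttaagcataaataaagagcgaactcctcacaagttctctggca
Igtp: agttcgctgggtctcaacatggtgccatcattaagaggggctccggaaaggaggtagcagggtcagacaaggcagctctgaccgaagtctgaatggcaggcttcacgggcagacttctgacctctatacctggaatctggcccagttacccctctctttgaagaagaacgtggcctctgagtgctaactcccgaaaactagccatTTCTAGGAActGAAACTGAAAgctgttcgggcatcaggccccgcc
Isg15: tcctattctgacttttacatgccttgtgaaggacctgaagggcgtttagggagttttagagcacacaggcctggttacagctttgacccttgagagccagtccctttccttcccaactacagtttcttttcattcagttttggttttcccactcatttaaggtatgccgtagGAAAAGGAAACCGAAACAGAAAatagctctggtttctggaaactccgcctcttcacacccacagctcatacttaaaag
In B2m the match began 139 bases before the start, in Gbp2 59 bases before it, and in Igtp 34 bases before it, next to a TTCNNNGAA match at 45. Isg15 held 3 overlapping matches that began 78, 72 and 66 bases before the start.

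In windows from 250 bases before to 50 after the start, the spaced GAAA repeat was found in 3.44% of all 32851 RefSeq windows and in 3.18% of the 15415 windows of the 12076 tested genes that could be matched. It was found in 5.46% of windows of genes called higher, 8.23% of those called higher by at least 4-fold, 2.67% of those not called and 2.05% of those called lower. Of the interferon-induced list 24 of 33 genes matched, and 16 of their 29 windows held it (55.2%). The shares for TTCNNNGAA were 8.34% in genes called higher, 5.63% in genes called lower and 34.5% in the interferon list, against 6.99% in all tested genes. The spaced GAAA repeat was in 4 of 17 windows of the MHC class I list (23.5%), 2 of 12 of the B cell list (16.7%), 1 of 21 of the beta-cell list (4.76%) and 0 of 19 of the T cell list, numbers of windows too small to rank. A match is a description of letters in a window and says nothing of binding in these islets.

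Chemokines of the interferon type rose, though with wide spread at 6 weeks. Of the 24 inflammatory chemokines and their receptors 20 were called higher and 1 lower (median log2 fold change 2.74). Cxcl10, a ligand of the chemokine receptor CXCR3 on T cells, was at 1.66, 8.23 and 30.2 CPM at 6 weeks and 185, 112 and 81.9 CPM at 10 weeks. Cxcl9, another ligand of the same receptor, was at 0.357, 12.9 and 60.7 CPM at 6 weeks and 409, 318 and 145 CPM at 10 weeks. The ages did not overlap in either gene, yet the 6-week mice ranged from 1.66 to 30.2 CPM in Cxcl10 and from 0.36 to 60.7 CPM in Cxcl9. Cxcl10 was called (3.25 ± 1.2 (SE), adjusted p = 0.0418), and Cxcl9 was not, at a log2 fold change of 3.56 ± 1.57 (SE), adjusted p = 0.0802. Cxcr3 itself rose by 3.9, Ccl5, a chemokine of activated T cells, by 3.97 and Ccl8, a monocyte chemokine, by 5.29. Cxcl12, which stromal cells make, rose by 1.31. Ccl17, described above, fell. The neutrophil chemokine Cxcl1 was not called (adjusted p = 0.108). With 1 mouse left out, 14 to 22 genes were called higher, the 14 without 6-week mouse 2. Cxcl10 lost its call without 6-week mouse 1 or 2 or 10-week mouse 1 or 2 (adjusted p of up to 0.127). Cxcl9 and Cxcl1 passed without 6-week mouse 3 (adjusted p = 0.0463 and 0.0449). Ccl5 lost its call without 6-week mouse 1 or 2 or 10-week mouse 1 (up to 0.0805) and Cxcr3 without 6-week mouse 2 (adjusted p = 0.0604).

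Genes that organise lymphoid tissue were among the largest increases outside the lymphocytes' own genes. Of 24 genes 23 rose (median log2 fold change 3.61). Cxcl13, the chemokine that gathers B cells into follicles, at chr5:95956951-95961068, was at 1.51, 0.132 and 0.946 CPM at 6 weeks and 115, 71.6 and 47.4 CPM at 10 weeks. Glycam1, a sulphated glycoprotein of the high endothelial venules of lymph nodes, was at 0.0396, 0.395 and 1.3 CPM at 6 weeks and 46.8, 79.1 and 21.9 CPM at 10 weeks. Neither gene exceeded 1.51 CPM at 6 weeks, and neither was below 21.9 CPM at 10 weeks. The log2 fold changes were 6.6 ± 0.74 (SE), adjusted p = 0.00145 for Cxcl13 and 6.45 ± 1.31 (SE), adjusted p = 0.00298 for Glycam1. Madcam1, the addressin that binds the integrin alpha4 beta7, rose by 5.63. Fut7 and Chst4, which modify the sugars of these venules, rose by 5.11 and 4.45 (adjusted p = 0.00502 and 0.00821). Ltb and Lta, the lymphotoxins that drive lymphoid tissue formation, rose by 4.92 and 3.31. Ccl19 and Ccl21a, which guide CCR7-bearing T cells, rose by 3.87 and 2.27. Ccl21a belongs to a family of near-identical copies, so its counts are uncertain, and its call was lost without 10-week mouse 2, 6-week mouse 2 or 6-week mouse 3 (adjusted p of up to 0.0765). The adhesion molecules Vcam1 and Icam1 rose by 3.3 and 3.26.

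Against general leukocyte RNA most of these genes did not differ by the test. On the pan-leukocyte scale 15 of the 24 were not called, 4 were higher and 5 were lower. Over all genes 0.501% were higher and 92.0% lower on this scale. Among the higher genes were Glycam1 (2.84 ± 0.94 (SE), adjusted p = 0.00326), Cxcl13 (1.94 ± 0.92 (SE), adjusted p = 0.0398) and Cxcr5. The higher calls were 2 without 10-week mouse 2 or 6-week mouse 1. The Glycam1 call held with any 1 mouse left out, while that of Cxcl13 held in 1 of 6 cases (adjusted p of up to 0.215). Cxcr5, the receptor of CXCL13 on B cells, had 2.18 and lost its call without 6-week mouse 1 (adjusted p = 0.0885). Genes of the reticular stroma of lymph nodes, some of which are on the lymphoid and B cell lists too, rose in all 10 cases on the total scale, with a median of 2.89. Pdpn, podoplanin of reticular and lymphatic cells, rose by 2.4, Il7, the survival factor of T cells, by 3.22 and Mfge8, a gene of follicular dendritic cells, by 2.45. Cr2, a complement receptor of follicular dendritic cells and B cells, rose by 5.8.

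Among the cytokines and stress regulators that the study followed, 17 of 20 were called higher (median log2 fold change 2.06). The list was chosen by the study on these samples, so its direction is not independent evidence. Tnf was at 0.594, 0.158 and 1.22 CPM at 6 weeks and 6.69, 6.05 and 2.29 CPM at 10 weeks. Il1b, the inflammasome cytokine, was at 1.94, 2.39 and 3.23 CPM at 6 weeks and 18.7, 13.6 and 10.8 CPM at 10 weeks, and Il6 was at 0, 0.0263 and 0.158 CPM at 6 weeks and 0.47, 0.352 and 0.499 CPM at 10 weeks. The ages did not overlap in any of the 3, Il6 was near the floor at 6 weeks, and their log2 fold changes were 2.97, 2.51 and 2.83 (adjusted p = 0.0168, 0.00319 and 0.0193). Atf3, a stress-induced transcription factor, was at 1.62, 1.37 and 1.66 CPM at 6 weeks and 6.66, 4.8 and 3.76 CPM at 10 weeks. It was steady among the mice of each age, with a log2 fold change of 1.71 ± 0.29 (SE), adjusted p = 0.00176. The NF-kB targets Tnfaip3 and Nfkb2 rose by 2.52 and 2.31, and Junb by 1.45. Jun, Fos and Egr1, immediate-early genes, were not called (adjusted p = 0.0783, 0.239 and 0.239). The number of higher calls was 12 without 6-week mouse 1. Jun passed without 10-week mouse 3 (adjusted p = 0.0183) and Egr1 without 6-week mouse 2 (adjusted p = 0.0314). Tnf lost its call without 6-week mouse 1, 6-week mouse 2 or 10-week mouse 1 (adjusted p of up to 0.0653) and Il6 without 6-week mouse 1 or 2 (up to 0.0826).

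Endocrine genes fell, and by far less than immune genes rose. Of 12 pan-endocrine genes, which all islet endocrine cells share, 11 were called lower and none higher (median log2 fold change -0.63). Their mean log2 CPM was 9.87, 9.95 and 9.82 in the 6-week mice and 9.01, 9.22 and 9.5 in the 10-week mice. At 10 weeks mouse 1 had the most leukocyte RNA and the least endocrine RNA, and mouse 3 the reverse. The 11 lower calls held with any 1 mouse left out. Chgb, which encodes secretogranin-1, was the 1 gene not called (log2 fold change -0.28, adjusted p = 0.265).

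Hormone genes fell with them. The 8 hormones took 51.5, 52.98 and 51.3% of all TPM in the 6-week mice and 31.1, 38.5 and 41.7% in the 10-week mice, which places the samples as islet tissue at both ages. Ins2, the conserved insulin gene, was at 167099, 185335 and 166734 CPM at 6 weeks and 71836, 97533 and 103584 CPM at 10 weeks. Ins1, the rodent-specific insulin gene, was at 75085, 75815 and 73499 CPM at 6 weeks and 35060.0, 47815 and 50666 CPM at 10 weeks. Gcg, the glucagon gene of alpha cells, was at 42423, 39334 and 35885 CPM at 6 weeks and 21526, 22490.5 and 22694 CPM at 10 weeks. Every 10-week mouse was below every 6-week mouse in all 3 genes. Ins2 fell by 47.4% (log2 fold change -0.93 ± 0.19 (SE), adjusted p = 0.0032), Ins1 by 40.5% and Gcg by 43.3%. Pyy, a peptide of PP and alpha cells, fell by 57.9% and Iapp, the amyloid peptide of beta cells, by 28.5%. Sst, the somatostatin gene of delta cells, had a log2 fold change of -0.44 and was not called (adjusted p = 0.0547). It passed without 10-week mouse 3 (adjusted p = 0.0299). In all, 6 of the 8 were lower.

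Beta-cell genes showed the same shift. Of 25 genes 23 were called lower and none higher (median log2 fold change -0.67), and 21 to 24 were lower with 1 mouse left out. Pdx1, the transcription factor of beta-cell identity, was at 196, 215 and 196 CPM at 6 weeks and 102, 124 and 162 CPM at 10 weeks. Slc2a2, the glucose transporter GLUT2, was at 1182, 1515 and 1437 CPM at 6 weeks and 482, 661 and 886 CPM at 10 weeks. The log2 fold changes were -0.65 ± 0.15 (SE), adjusted p = 0.00573 for Pdx1 and -1.03 ± 0.21 (SE), adjusted p = 0.00314 for Slc2a2. Gipr, the receptor for the incretin GIP, fell by 0.91 on the log2 scale. Mafa, a transcription factor of mature beta cells, had a log2 fold change of -0.5 and was not called (adjusted p = 0.0677), though it passed without 10-week mouse 3 or 6-week mouse 3 (adjusted p = 0.0196 and 0.0375). Of 12 genes of alpha, delta and PP cells 10 were lower. Ttr and Gc, which alpha cells express strongly, fell by 1.15 and 1.09 on the log2 scale (adjusted p = 0.00227 and 0.0016). Hhex, a delta-cell factor that leukocytes also express, rose by 0.23 (adjusted p = 0.0377), a call lost without 10-week mouse 2 or 3 or 6-week mouse 2 or 3 (up to 0.145).

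A fit scaled to the pan-endocrine genes asked which of these genes fell more than endocrine RNA in general. On this scale the median over all genes was 0.599 and 69.5% of genes were called, 11408 of them higher (68.9%) and 97 lower (0.586%), so a lower call sets a gene apart. Most beta-cell genes no longer differed by the test. Of the 25, 2 were lower, with a median of -0.071, and between 1 and 5 with 1 mouse left out, the 5 without 10-week mouse 3 and 1 without 10-week mouse 1 or 2 or 6-week mouse 2 or 3. The scaled log2 fold change of Pdx1 was -0.038. Slc2a2 and Gipr were the 2 that passed, with -0.43 ± 0.13 (SE), adjusted p = 0.01 for Slc2a2 and -0.31 ± 0.13 (SE), adjusted p = 0.0444 for Gipr. The Slc2a2 call held with any 1 mouse left out and the Gipr call was lost without 10-week mouse 1 or 2 or 6-week mouse 2 or 3 (adjusted p of up to 0.172). Of the hormones Ins2 (-0.31 ± 0.087 (SE), adjusted p = 0.00698) and Pyy (-0.66 ± 0.17 (SE), adjusted p = 0.00406) were lower, both with any 1 mouse left out. Ttr and Gc were lower too, with -0.54 and -0.48 (adjusted p = 0.0079 and 0.0037), also with any 1 mouse left out.

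**Figure D4:**
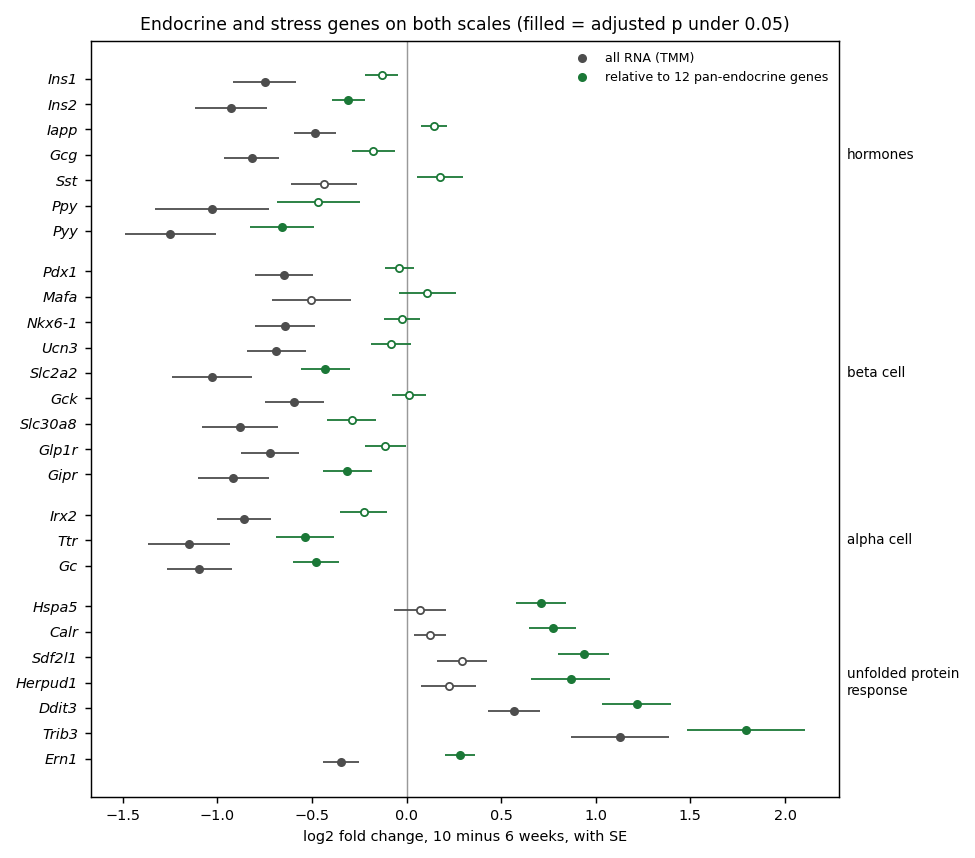
Log2 fold change from 6 to 10 weeks with its SE for hormone, beta-cell, alpha-cell and unfolded protein response genes, on the scale of all RNA (grey) and relative to the 12 pan-endocrine genes (green), filled where the adjusted p was under 0.05. The hormone and cell type genes lie left of 0 on the scale of all RNA, and on the other scale Ins2, Pyy, Slc2a2, Gipr, Ttr and Gc are the filled points that stay left of 0.

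Genes of the unfolded protein response, by which secretory cells cope with misfolded protein, were mostly not called on the scale of total RNA. Of 18 genes 3 were higher and 1 lower (median log2 fold change 0.082), against 23.6% and 21.9% of all genes. Without 6-week mouse 1 the higher calls were 6, with a median of 0.19. Trib3, a kinase-like target of CHOP, was at 3.53, 3.21 and 2.84 CPM at 6 weeks and 8.25, 6.41 and 6.28 CPM at 10 weeks. Its log2 fold change was 1.13 ± 0.26 (SE), adjusted p = 0.00495, and Ddit3, which encodes CHOP, rose by 0.57 (adjusted p = 0.00611). Edem1, of the degradation branch, rose by 0.54, and the stress sensor Ern1 fell by 0.34 (adjusted p = 0.0116), a call lost without 10-week mouse 1 (adjusted p = 0.0558). Hspa5, the chaperone BiP, had a log2 fold change of 0.071 and was not called. On the pan-endocrine scale all 18 were higher, from 0.28 for Ern1 to 1.79 for Trib3, against 68.9% of all genes. Their scaled median of 0.71 was near the 0.599 of all genes, and leukocytes and stromal cells express these genes too, so no cell type can be named for the difference.

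Vessel genes changed unevenly. Of 13 endothelial genes 6 were higher and 1 lower (median log2 fold change 0.27), against 23.6% and 21.9% of all genes. Vwf, a clotting factor of larger vessels, was at 4.71, 2.08 and 5.87 CPM at 6 weeks and 22.4, 34.1 and 20.8 CPM at 10 weeks. Ackr1, a chemokine receptor of venules, was at 0.634, 0.368 and 0.828 CPM at 6 weeks and 5.14, 9.24 and 3.99 CPM at 10 weeks. Both rose, by 2.63 and 3.35 on the log2 scale (adjusted p = 0.0016 and 0.00145). Pecam1 (CD31), which leukocytes also carry, and Eng rose by 0.72 and 0.72, and Cdh5, the cadherin of endothelial junctions, by 0.4. Emcn, a sialomucin of capillary and venous endothelium, fell by 0.31 (adjusted p = 0.0385), a call lost without 6-week mouse 1 or 2 or 10-week mouse 1 or 2 (up to 0.154) and when scaling to library totals. The other endothelial genes differed by less than 2-fold.

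Stromal genes rose in part. Of 18 fibroblast, pericyte and collagen genes 13 were higher and none lower (median log2 fold change 1.4). Col1a1, a chain of fibrillar collagen, was at 73.7, 39.2 and 68.7 CPM at 6 weeks and 217, 234 and 122 CPM at 10 weeks. Its log2 fold change was 1.66 ± 0.39 (SE), adjusted p = 0.00545. Pdgfra, a receptor of fibroblasts, rose by 2.82, Dcn, a matrix proteoglycan, by 2.28, Fn1, fibronectin, by 2.12 and Acta2, smooth muscle actin, by 1.83. Thy1, which T cells express as well, rose by 2.32. The basement membrane collagen Col4a2 and the pericyte gene Rgs5 were not called (adjusted p = 0.607 and 0.458). Among 9 genes of Schwann cells and neurons Ngfr rose by 1.83 and Ncam1, which endocrine cells also express, fell by 0.6. Ngfr is also made by follicular dendritic and reticular cells. The mesothelial genes went in opposite directions, with Msln at 68.2, 118 and 84.7 CPM at 6 weeks and 27.97, 37.4 and 50.1 CPM at 10 weeks and a log2 fold change of -1.23 ± 0.25 (SE), adjusted p = 0.00288, while Wt1 rose by 3.11, a call lost without 10-week mouse 1 (adjusted p = 0.068).

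Cell cycle genes rose moderately. Of 22 genes 19 were higher (median log2 fold change 1.27). Mki67, which encodes Ki-67, was at 16.8, 14.1 and 24.5 CPM at 6 weeks and 74.8, 59.03 and 33.8 CPM at 10 weeks. The ages did not overlap, and the log2 fold change was 1.6 ± 0.41 (SE), adjusted p = 0.00838. Top2a, a topoisomerase of dividing cells, rose by 1.58, Rrm2, a subunit of ribonucleotide reductase, by 1.87 and Mcm3, of the replicative helicase, by 1.77. Cdk1 was not called (adjusted p = 0.0631) but passed without 10-week mouse 3 (adjusted p = 0.0126). The number of higher calls was 13 without 10-week mouse 1, 10-week mouse 2 or 6-week mouse 2. Which cells divided cannot be read from bulk RNA.

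The Hedgehog pathway, which the study examined, held calls in both directions. Of 14 genes 11 were tested, and 6 were higher and 2 lower (median log2 fold change 0.63), against 23.6% and 21.9% of all genes. The signal transducer Smo was at 5.98, 6.05 and 6.03 CPM at 6 weeks and 12.05, 11.5 and 6.45 CPM at 10 weeks. Its log2 fold change was 0.73 (adjusted p = 0.0167), and Sufu, an inhibitor of the GLI factors, rose by 0.63 (adjusted p = 0.00362). The transcription factors Gli1, Gli2 and Gli3 rose by 0.87, 1.17 and 1.76 (adjusted p = 0.0222, 0.00991 and 0.00996), and the coreceptor Gas1 by 1.06. The receptor Ptch1 fell by 0.27 and the coreceptor Cdon by 0.4 (adjusted p = 0.0223 and 0.00682). Of the ligands Ihh and Shh had too few counts to be tested and Dhh was not called (adjusted p = 0.4). The Smo call was lost without 10-week mouse 1 or 2 (adjusted p = 0.0788 and 0.0682), the Gli1 call without 10-week mouse 2 or 6-week mouse 2 (up to 0.113) and the Ptch1 call without 10-week mouse 1 or 2 or 6-week mouse 2 or 3 (up to 0.0872). The Ptch1 and Cdon calls were also lost when scaling to library totals. Fibroblast genes, which rose, are given above, and their part in these differences was not tested.

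Exocrine RNA varied widely among mice of the same age. None of 16 tested acinar genes was called, and the ages overlapped for all 16. Their summed level was 13326, 3223 and 7328 CPM in the 6-week mice and 21805, 8822 and 2740.0 CPM in the 10-week mice, with the highest value in 10-week mouse 1, which also had the most leukocyte and least endocrine RNA. The median log2 fold change of the list was 0.51, and it was -0.47 without that mouse. None of 6 tested Reg genes was called, and none of 4 tested red blood cell genes. Among 10 ductal genes 2 were higher and 4 lower, against 23.6% and 21.9% of all genes, and none was higher without 10-week mouse 2. The higher calls were 1 without 6-week mouse 2 or 3, and the lower calls were 2 without 10-week mouse 1. Spp1, osteopontin, which macrophages also make, rose by 0.72, a call lost without 10-week mouse 2 (adjusted p = 0.0509), and Krt7, a duct keratin, fell by 0.66 (adjusted p = 0.00249). Neutrophil and mast cell genes were largely too low to test, with 2 of 13 tested and both higher. Of 15 intestinal genes 5 were tested and 2 were called lower, with a median log2 fold change of -0.82, and 1 was lower without 6-week mouse 2, which carried intestinal transcripts, without 6-week mouse 3 or without 10-week mouse 1 or 2.

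The largest decreases were mostly in genes of low level. Among called genes of at least 1 CPM at one of the ages whose ages did not overlap, the 15 largest ran from a log2 fold change of -1.58 for Dok7 to -2.22 for Fa2h, and the other 3 called genes that fell by at least 4-fold, Nkx6-3, Hs3st5 and Gm43683, were below that level or overlapped between ages and are named after their values were seen. Rad51ap2 was the most abundant of the 15, at 6.81, 10.9 and 13.4 CPM at 6 weeks and 1.95, 3.32 and 4.19 CPM at 10 weeks. Its log2 fold change was -1.71 ± 0.33 (SE), adjusted p = 0.00255. Fa2h, an enzyme of hydroxylated sphingolipids, was at 0.594, 1.29 and 1.34 CPM at 6 weeks and 0.0362, 0.151 and 0.499 CPM at 10 weeks. Cngb3, a cyclic nucleotide-gated channel subunit, was at 1.78, 1.5 and 1.5 CPM at 6 weeks and 0.398, 0.427 and 0.499 CPM at 10 weeks and fell by 1.84 (adjusted p = 0.00268). Hrh3, a histamine receptor, and Slc14a2, a urea transporter, fell by 1.68 and 1.71. The 5 largest decreases by the same rule on the pan-endocrine scale were also among them, in Chil6, Cngb3, Gm5577, RP23-357C16.1 and Rad51ap2, with scaled log2 fold changes from -1.36 to -1.13. Leaving out 1 mouse ended the calls of Chil6, Hrh3, RP23-357C16.1 and Slc14a2 in 2 to 4 of 6 cases, at an adjusted p of up to 0.111, and those of Fa2h, Cngb3, Gm5577, Rad51ap2 and Dok7 in none. Apart from Rad51ap2 and Gm5577, none of the 15 exceeded 3.26 CPM in any of the 6 mice.

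Set among all 5 ages, the interval from 6 to 10 weeks held most of the change in leukocyte RNA. The interval was chosen because it spans this rise, so its share of the change is not independent evidence. The mean log2 CPM of pan-leukocyte genes was 2.63 ± 1.45 (SD, n = 3) at 4 weeks, 2.97 ± 1.14 at 6, 5.02 ± 1.54 at 8, 7.02 ± 0.63 at 10 and 7.23 ± 0.22 at 12. The 4- and 6-week means differed by less than either SD, and the 10- and 12-week means by less than either SD. The 8-week mice had the largest SD, and Ptprc in them was 18.9, 110.4 and 145 CPM. For pan-endocrine genes the means were 9.98, 9.88, 9.69, 9.25 and 9.1 at 4, 6, 8, 10 and 12 weeks, with SDs of up to 0.25. Glycam1 was at 169, 271 and 231 CPM at 12 weeks, above every 10-week mouse. Mki67 followed another course. It was at 48.4, 55.4 and 61.1 CPM at 4 weeks, above every 6-week mouse, and the mean log2 CPM of the proliferation list was 4.06 at 4 weeks, 2.83 at 6 and 3.98 at 10.

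**Figure D5:**
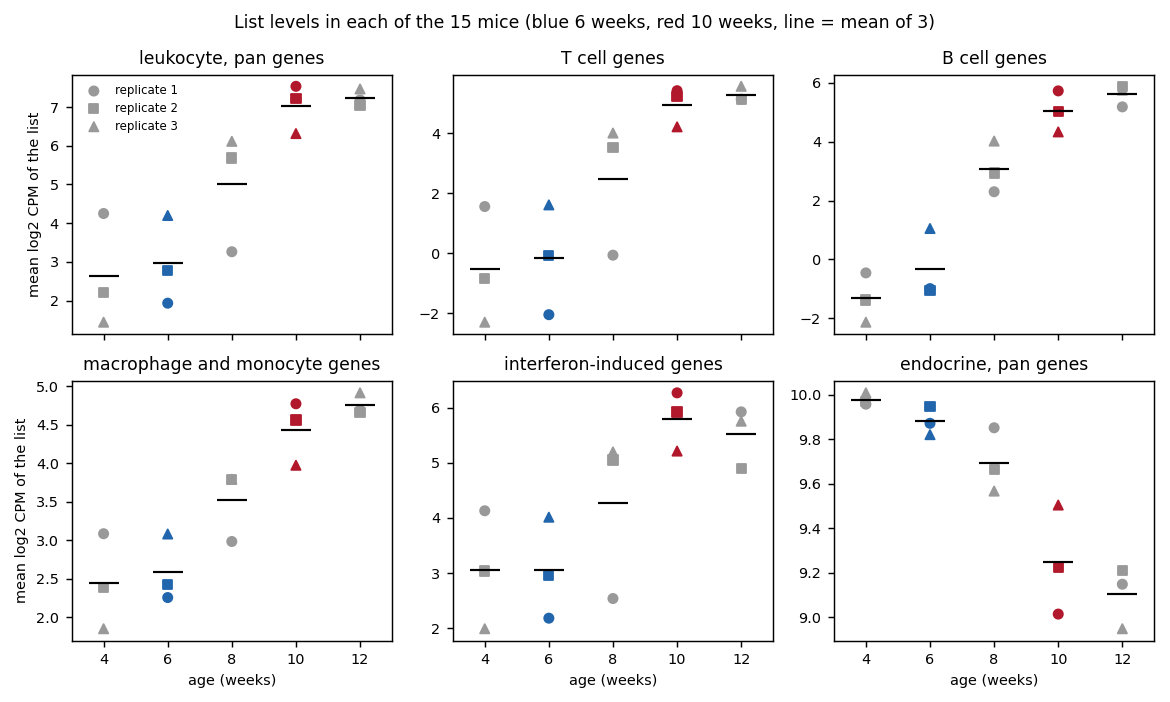
Mean log2 CPM of gene lists in each mouse at 4, 6, 8, 10 and 12 weeks, with 1 point per mouse (the shape giving the replicate, blue at 6 weeks and red at 10 weeks) and a line at the mean of 3. Every 10-week mouse is above every 6-week mouse in the leukocyte, T cell, B cell, macrophage and interferon panels and below every one in the pan-endocrine panel, and in the leukocyte panel the 8-week mean lies between theirs, with the widest spread of the 5 ages.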

How the data were processed

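RNA was sequenced from islets of 15 NOD/ShiLtJ females, 3 at each of 5 ages, of which the mice of 6 and 10 weeks are compared here. According to the study, islets were released with collagenase and picked by hand, libraries were made from polyadenylated RNA and read as pairs, and reads were trimmed, aligned and counted per gene in CLC Genomics Workbench at default settings. The labels name the mouse build mm10, and 87.8% of the gene regions share both ends with the GRCm38 annotation used for coordinates. The table that was deposited holds raw read counts for 48709 genes, as the authors' software counted them and with no scaling. The deposited TPM values, which the authors' software scaled for gene length and depth, served only for the share of RNA taken by a list. The 30 per-sample columns of RPKM and CPM were not used, and columns of the authors' own comparisons entered no step.

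The deposited counts were tested with edgeR 4.0.16 (R 4.3.3). The 16554 genes that passed filterByExpr across ages, of 22813 with any count, were scaled by TMM and fitted with glmQLFit over all 15 samples, with 1 mean per age, and the contrast of 10 minus 6 weeks was tested with glmQLFTest. A gene was called at a Benjamini-Hochberg adjusted p under 0.05 over all genes tested. Each SE is the absolute log2 fold change divided by the square root of the F statistic, so it restates the test. Further fits multiplied the library sizes by the mean level of 12 pan-endocrine or 10 pan-leukocyte genes. CPM are counts scaled to a common TMM-corrected library size, list levels are means of log2 CPM with a prior count of 2, and the floor was 3 counts. Antibody, MHC and chemokine genes with near-identical copies can exchange reads and are uncertain.

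The samples compared and the gene lists were chosen with earlier results of these data known, and lists are described by counts and medians with no test of the list. Named genes are the 15 largest increases and decreases among called genes of at least 1 CPM whose ages do not overlap, the 5 largest of each in the scaled fits, and list members with the largest changes, defining roles or opposite direction. Of the lists not described above, those of neutrophil and mast cell, intestinal, red blood cell and Reg genes are given as counts. Promoter windows came from RefSeq on GRCm38.p6. Alternatives were DESeq2 1.42.0 and its size factors, library totals, no filter, the 2 ages alone, the exact test of edgeR, each mouse left out, the replicate number as a block, the first or last genes of each list as the scale, and a prior count of 0.5. The steps were tested on simulated data. A few list members are counted but not reported by name here.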

Additional observations from a re-analysis of the deposited data

How the results depend on the processing

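The 7531 calls between 6 and 10 weeks (3911 higher and 3620 lower) and the 4339 DEGs stayed within 1.5 times under DESeq2 and its size factors and with no filter on low counts. Library totals without TMM moved the median of all genes by 0.214 on the log2 scale and gave 5922 higher and 1190 lower calls, so that 83.3% of calls were higher against 51.9%. Lower calls numbered 1840 with the 2 ages alone and 1919 with the exact test. With 1 mouse left out, calls ran from 5057 to 8632, higher calls from 2934 to 4342, lower calls from 2123 (without 10-week mouse 1) to 4290 and DEGs from 3386 to 5466. On the pan-endocrine scale the 97 lower calls were 40 with the 2 ages alone and 50 to 144 with 1 mouse left out, with 56 without 10-week mouse 1 and 62 and 50 without 6-week mice 2 and 3. On the pan-leukocyte scale the 83 higher calls were 55 to 102, the 55 without 10-week mouse 1. Same-numbered mice of both ages deviated from their means with correlations of -0.091, -0.041 and -0.381, and none was closest to its own number. The labels do not say what the replicate numbers mean. With 3 mice an age, these values cannot decide whether the numbers mark a pairing. A replicate block over all 15 samples gave 6776 calls (3625 higher, 3151 lower), and over the 6 samples, with 2 residual degrees of freedom, 0 calls (0 higher, 0 lower), 6517 genes at an unadjusted p under 0.05 and 3706 DEGs. Of 2409 values of named genes under an alternative, 2109 stayed on the same side of the threshold and in the same direction, 264 were no longer past it, 134 of them under the block over 6 samples, 32 passed it newly, and 4 reversed, all in genes that were not called. These were Lyve1 (0.0037) and Xbp1 (0.061) with library totals, and Pdx1 on the pan-endocrine scale, with only the last 6 genes of the list as the scale (0.0044) and with 1 mouse left out (-0.0860 to 0.0012, the highest without 10-week mouse 1). The cause of these shifts was not tested. With 3 mice an age, differences smaller than the spread between mice could not be told from it.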
